A study of Mus musculus with 50 samples.

Results

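The fibroblast growth factor (FGF) ligand and receptor genes Fgf1, Fgf2, Fgf7, Fgf10, Fgf13, Fgf18, Fgfr1, Fgfr2, Fgfr3 and Fgfrl1 were followed across 5 populations of young adult mouse colon (YAMC) cells. All rows of the array table whose only annotated symbol was one of these 10 genes were taken, which gave 20 probe sets of the 45037 with values. Of these, 11 probe sets of 8 genes passed a filter on low values, set at the median of the whole table (6.44 on the log2 scale) on at least 10 of the 50 arrays. All 3 probe sets of Fgf1 and the only one of Fgf2 stayed under that level on every array.

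The mp53/Ras population carried p53175H, a mutant p53, together with RasV12, an activated Ras. The Ras population carried RasV12 with the empty Bleo vector, and the mp53 population carried p53175H with the empty Neo vector. The bleo/Neo population carried both empty vectors, and the YAMC cells were the uninfected parents. All 5 groups descend from the Immorto-mouse and carry a temperature-sensitive large T antigen under an interferon γ-inducible promoter, which supports their growth at 33 °C. Before harvest every group spent 48 h at 39 °C without interferon γ, where large T does not work, and then 24 h in medium with 0% serum. Each infected population was polyclonal and was derived once, so that a difference between populations cannot be told apart from a difference between derivations. The labels number 10 arrays per group without saying whether they were separate cultures, and the p-values therefore measure the spread between these arrays only.

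FGFs are secreted proteins that bind receptor tyrosine kinases together with heparan sulfate, and the receptors signal through adaptor proteins to Ras and the ERK kinases. In many tissues a ligand made by one cell layer acts on a receptor splice form of the neighbouring layer. In the gut, Fgf7 and Fgf10 are known as mesenchymal ligands of the epithelial form of Fgfr2. ERK activity in turn raises inhibitors of the pathway, such as the Sprouty proteins and the phosphatase Dusp6.

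Of the 50 arrays, 46 lay nearest to the mean of their own group over all tested probe sets. The exceptions were mp53 array 10, which lay nearest to Ras, Ras array 10 and YAMC array 2, which lay nearest to mp53, and mp53 array 8, which lay nearest to YAMC. The mean of 3 Y-linked genes was 6.44 in mp53/Ras, 7.17 in Ras, 7.89 in mp53, only 3.65 in bleo/Neo and 7.38 in YAMC. Of 7 epithelial markers 5 passed the filter, Cdh1 and Cldn4 did not, and of 6 markers of mature colon epithelium only Muc2 passed. Of 9 fibroblast and smooth muscle markers 7 passed, and Pdgfra and Lum did not. Of 4 endothelial markers Kdr and Tek passed and Pecam1 and Cdh5 did not, and of 4 immune markers Cd3e and Csf1r passed and Ptprc and Itgam did not. The arrays measured polysomal RNA, so a level reflects transcript abundance and ribosome loading together, and fewer cells of a type and less RNA per cell cannot be told apart.

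Promoters of 8 of the 10 genes were matched in RefSeq (GRCm38.p6), 12 in all, each running from 250 bases before to 50 bases after an annotated start. The promoters of 3 members are shown, since Fgf7 was the member with the widest range of group means and Fgf18 and Fgfrl1 were lower in the Ras-carrying populations. All are written 5′ to 3′ on the gene's own strand, and capitals mark motif matches on either strand.
Fgf7, chr2:126034408-126034707, plus strand: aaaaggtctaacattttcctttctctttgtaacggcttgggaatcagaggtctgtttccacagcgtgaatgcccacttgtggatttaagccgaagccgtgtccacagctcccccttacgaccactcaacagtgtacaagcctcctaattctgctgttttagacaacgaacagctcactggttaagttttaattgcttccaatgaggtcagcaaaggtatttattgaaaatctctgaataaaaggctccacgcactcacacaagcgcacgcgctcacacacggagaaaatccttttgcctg
Fgf18, chr11:33147351-33147650, minus strand: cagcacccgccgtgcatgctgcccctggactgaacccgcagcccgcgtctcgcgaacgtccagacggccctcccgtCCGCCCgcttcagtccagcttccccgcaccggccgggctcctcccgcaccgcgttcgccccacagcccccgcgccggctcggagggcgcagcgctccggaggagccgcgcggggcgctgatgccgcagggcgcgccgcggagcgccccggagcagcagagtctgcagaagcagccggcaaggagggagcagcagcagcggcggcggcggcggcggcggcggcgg
Fgfrl1, chr5:108693979-108694278, plus strand: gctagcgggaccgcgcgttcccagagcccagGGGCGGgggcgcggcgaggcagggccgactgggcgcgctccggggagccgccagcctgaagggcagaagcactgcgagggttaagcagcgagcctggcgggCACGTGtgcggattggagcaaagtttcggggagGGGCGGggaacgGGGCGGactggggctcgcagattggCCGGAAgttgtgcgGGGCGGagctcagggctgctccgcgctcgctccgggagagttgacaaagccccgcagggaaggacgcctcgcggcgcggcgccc
The motifs searched were the AP-1 site TGANTCA, the ETS site CCGGAA, the GC box GGGCGG, the TATA box TATAAA, the cyclic AMP response element TGACGTCA and the E-box CACGTG. The Fgf7 promoter held none of them and was 45.7% G or C, against a median of 52.7% over 32851 mouse promoters. The Fgf18 promoter was 78.7% G or C with 1 GC box, and the Fgfrl1 promoter 73.7% with 4 GC boxes, 1 ETS site and 1 E-box. GC boxes occurred in 8 of the 12 promoters of these genes and in 35.7% of all promoters, ETS sites in 1 and 14.9%, AP-1 sites in 1 and 7.81%, TATA boxes in 1 and 13.6%, E-boxes in 2 and 7.15%, and the cyclic AMP response element in 0 and 1.79%. These matches describe the letters in the window and are no evidence of binding.

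Fgf7, also called keratinocyte growth factor, was high in both populations that carried RasV12 and low in the others. On probe set 1438405_at its log2 intensity ran from 9.52 to 10.06 in mp53/Ras (median 9.76), from 6.21 to 10.03 in Ras (median 9.33), from 6.18 to 8.87 in mp53 (median 6.30), from 5.36 to 6.02 in bleo/Neo (median 5.59) and from 5.84 to 7.0 in YAMC (median 6.10). All mp53/Ras and Ras arrays lay above all bleo/Neo arrays. Ras array 10, at 6.21, stood far below the other Ras arrays, of which the next lowest read 9.03. mp53 array 10, at 8.87, stood far above the other mp53 arrays, of which the next highest read 6.80. These are among the arrays that lay nearest to another group over all probe sets.

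Relative to bleo/Neo, Fgf7 was 4.13 ± 0.27 log2 units higher in mp53/Ras (SE of the limma fit, n = 10 arrays per group here and below), or 17.5-fold, with an adjusted p of 1.44e-18. The difference was 3.46 in Ras (adjusted p 1.78e-15) and 0.99 in mp53 (adjusted p 0.00318). Without mp53 array 10 and Ras array 10 these differences became 3.78 in Ras and 0.74 in mp53, still called. Relative to the parental cells, Fgf7 rose by 3.62 in mp53/Ras and by 2.94 in Ras, whereas the mp53 difference of 0.47 was not called (adjusted p 0.21). The vector population itself differed from YAMC by -0.51, which was not called (adjusted p 0.135). The difference was called without mp53 array 10 and Ras array 10 (-0.51, adjusted p 0.000251) and in a fit of bleo/Neo and YAMC alone (-0.51, adjusted p 0.00145).

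The second Fgf7 probe set, 1422243_at, gave the same order of the Ras-carrying populations. It averaged 8.77 ± 0.18 in mp53/Ras, 8.01 ± 0.69 in Ras and 6.52 ± 0.32 in mp53, against 5.84 ± 0.15 in bleo/Neo and 5.93 ± 0.25 in YAMC (SD, n = 10 each). Here too Ras array 10 (6.2) and mp53 array 10 (7.40) stood apart from their groups. The differences from bleo/Neo were 2.92 ± 0.16 in mp53/Ras, 2.17 ± 0.16 in Ras and 0.68 ± 0.16 in mp53, all called. Unlike on the first set, the mp53 difference from YAMC was called too (0.59, adjusted p 0.00627). Both Fgf7 probe sets passed the filter almost wholly through the groups in which they were high, with 10 mp53/Ras and 9 Ras arrays above the level and 0 bleo/Neo arrays.

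Fgf7 was higher in mp53/Ras than in Ras by a similar amount on both probe sets, but on all arrays only the difference on 1422243_at was called. On 1422243_at the mp53/Ras arrays exceeded the Ras arrays by 0.75 ± 0.16 (adjusted p 0.00044). On 1438405_at the difference was 0.67 ± 0.27 and missed the threshold (adjusted p 0.068). Without Ras array 10 and mp53 array 10 both were called, at 0.35 ± 0.11 on 1438405_at (adjusted p 0.0232) and 0.55 ± 0.09 on 1422243_at (adjusted p 1.14e-05). In the order of levels on 1438405_at, Ras exceeded mp53 by 2.47, while mp53 over YAMC and YAMC over bleo/Neo were not called.

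Fibroblasts are a usual source of Fgf7 in tissue, so the fibroblast and smooth muscle markers are given beside it. Their summed linear intensity ranged from 34504 to 44868 in mp53/Ras, from 26773 to 56324 in Ras, from 33175 to 79082 in mp53, from 34043 to 54867 in bleo/Neo and from 58028 to 77602 in YAMC. The sum was highest at the median in mp53 and YAMC. It is carried by the brightest genes, and against bleo/Neo single markers moved in opposite directions. Of the 7 tested, 3 were higher and 2 lower in mp53/Ras, 2 higher and 2 lower in Ras, and 4 higher and 1 lower in mp53. Against YAMC 0 were higher and 6 lower in mp53/Ras and likewise in Ras, and 1 was higher and 0 lower in mp53. Col1a2 averaged 12.41 in mp53/Ras, 12.08 in Ras and 13.06 in mp53, against 8.68 in bleo/Neo and 13.30 in YAMC, and so was higher in mp53/Ras, Ras and mp53 than in bleo/Neo. Dcn averaged 10.69 in mp53/Ras, 10.85 in Ras and 12.04 in mp53, against 12.92 in bleo/Neo and 11.47 in YAMC. The part of these cells in the Fgf7 result was not tested.

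Fgf10, the other mesenchymal ligand of the epithelial Fgfr2 form and a driver of lung and limb budding in mice, barely varied. It ran from 7.50 to 7.96 in mp53/Ras (median 7.75), from 7.23 to 7.72 in Ras (median 7.49), from 7.35 to 7.77 in mp53 (median 7.45), from 7.25 to 8.0 in bleo/Neo (median 7.59) and from 7.18 to 7.81 in YAMC (median 7.43). The groups overlapped throughout. Its group means spanned only 0.29, and no difference from bleo/Neo was called. The mp53/Ras mean lay 0.29 ± 0.08 above YAMC (adjusted p 0.00264), 0.27 above mp53 (adjusted p 0.00591) and 0.25 above Ras (adjusted p 0.0231).

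Fgf18, a secreted ligand that regulates cartilage and lung development in mice, moved opposite to Fgf7. It ran from 7.11 to 8.25 in mp53/Ras (median 7.57), from 7.35 to 8.66 in Ras (median 8.32), from 7.81 to 9.75 in mp53 (median 9.17), from 8.25 to 10.68 in bleo/Neo (median 9.92) and from 8.0 to 10.00 in YAMC (median 8.94). The mp53/Ras arrays had the lowest median, but the highest of them (8.254) just passed the lowest bleo/Neo array (8.246). The bleo/Neo arrays were themselves widely spread. Fgf18 fell by 2.01 ± 0.25 in mp53/Ras relative to bleo/Neo (4.04-fold, adjusted p 1.19e-09) and by 1.33 ± 0.25 in Ras (adjusted p 1.64e-05). The mp53 difference of -0.58 was near the threshold (adjusted p 0.0664), and with the replicate number as a block it was called (adjusted p 0.0141). Relative to YAMC, Fgf18 fell by 1.37 in mp53/Ras and by 0.69 in Ras (adjusted p 0.0225), with a difference of 0.07 in mp53. bleo/Neo exceeded YAMC by 0.65 ± 0.25 (adjusted p 0.0365), a call lost without mp53 array 8 and YAMC array 2 (0.54, adjusted p 0.0838). The further difference between mp53/Ras and Ras was -0.68 ± 0.25 (adjusted p 0.0432), and it lost its call without Ras array 10 and mp53 array 10 (-0.64, adjusted p 0.0543).

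Fgf13 is an FGF homologous factor, which stays inside the cell, binds voltage-gated sodium channels and is not a classical receptor ligand. On probe set 1418497_at it ran from 5.08 to 5.44 in mp53/Ras (median 5.26), from 5.73 to 7.47 in Ras (median 6.82), from 4.57 to 5.77 in mp53 (median 4.79), from 6.12 to 7.35 in bleo/Neo (median 6.87) and from 4.41 to 5.49 in YAMC (median 5.03). It was thus high in the populations that received the empty Bleo vector with or without RasV12, and low in the parental cells and in both populations that received p53175H. All bleo/Neo arrays lay above all mp53/Ras, mp53 and YAMC arrays, and the lowest Ras array, number 10, lay just under the highest mp53 array, also number 10. Fgf13 fell by 1.59 ± 0.15 in mp53/Ras and by 1.97 ± 0.15 in mp53 relative to bleo/Neo (adjusted p 6.39e-13 and 1.15e-15), with a difference of -0.06 in Ras. In mp53/Ras it differed by -1.53 ± 0.15 from Ras (adjusted p 3.89e-11) and was 0.39 ± 0.15 higher than in mp53 (adjusted p 0.0312).

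Against the parental cells the picture for Fgf13 was the reverse, since bleo/Neo exceeded YAMC by 1.86 ± 0.15 (adjusted p 1.12e-14) and Ras exceeded YAMC by 1.81 ± 0.15 (adjusted p 8.12e-14). The mp53/Ras and mp53 differences from YAMC, 0.28 and -0.11, were not called. bleo/Neo also stood apart in the Y-linked genes, and the part of that in its Fgf13 level was not tested. Its other probe set, 1418498_at, was under the filter level on every array, with group means that spanned 0.22. The set described above passed through 9 Ras and 9 bleo/Neo arrays alone.

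**Figure D1:**
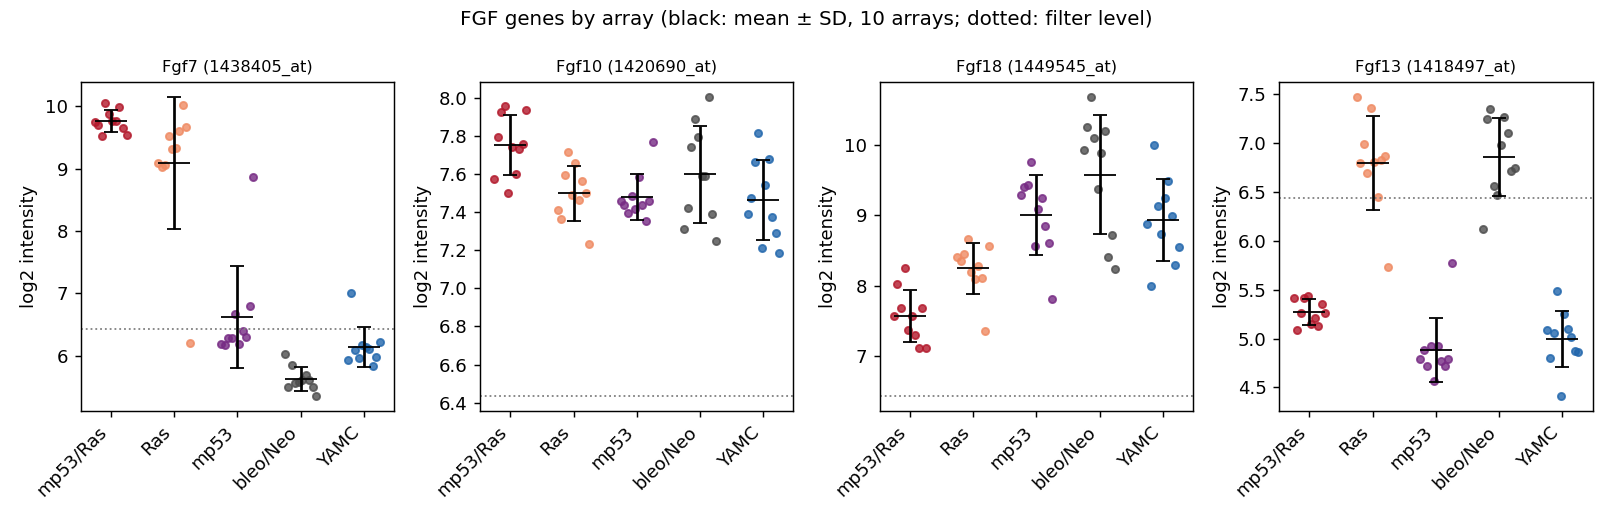
Log2 intensity of Fgf7, Fgf10, Fgf18 and Fgf13 (y axis) on each of the 10 arrays of mp53/Ras, Ras, mp53, bleo/Neo and YAMC (x axis), with the mean and SD in black and the filter level of 6.44 as a dotted line. Fgf7 is high in mp53/Ras and Ras apart from Ras array 10 at 6.21, Fgf18 is lowest in mp53/Ras, and Fgf13 is high in Ras and bleo/Neo.

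The classical ligands Fgf1 and Fgf2, which lack a conventional signal peptide and bind several FGF receptors, gave no level above the filter. The 3 Fgf1 probe sets read at most 5.77, 5.16 and 4.69 on any array, and the Fgf2 probe set at most 5.14. Their group means spanned 0.09, 0.54, 0.18 and 0.11. A low array level does not show that a gene is silent, since it can also come from a weak probe set.

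Fgfr1, the receptor whose mesenchymal splice form binds many FGFs, was high in mp53/Ras and in the parental cells and lower elsewhere. On probe set 1424050_s_at it ran from 7.68 to 8.81 in mp53/Ras (median 8.24), from 5.52 to 6.49 in Ras (median 6.02), from 6.31 to 7.81 in mp53 (median 6.70), from 5.56 to 7.20 in bleo/Neo (median 6.05) and from 6.56 to 8.34 in YAMC (median 8.04). All mp53/Ras arrays lay above all Ras and bleo/Neo arrays. The highest mp53 array was number 8 and the lowest YAMC array number 2, both of them arrays that lay nearest to another group. bleo/Neo array 1, at 7.20, was also far above the next bleo/Neo array at 6.38.

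Fgfr1 was 2.09 ± 0.18 higher in mp53/Ras than in bleo/Neo (4.25-fold, adjusted p 1.88e-14) and 0.61 ± 0.18 higher in mp53 (adjusted p 0.00626), while Ras differed by -0.18 (adjusted p 0.433). It was 2.27 higher in mp53/Ras than in Ras and 1.48 higher than in mp53. Against YAMC the mp53/Ras difference was 0.29 ± 0.18 and was not called (adjusted p 0.162), whereas Fgfr1 fell by 1.98 in Ras and by 1.19 in mp53, and bleo/Neo differed from its parent by -1.80, also called. Without mp53 array 8 and YAMC array 2, the mp53 difference was 0.49 from bleo/Neo and -1.46 from YAMC, both still called.

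The second Fgfr1 probe set, 1425911_a_at, was dimmer and showed the same order at the top. It averaged 6.79 ± 0.24 in mp53/Ras, 5.62 ± 0.14 in Ras and 5.74 ± 0.08 in mp53, against 5.57 ± 0.12 in bleo/Neo and 6.21 ± 0.44 in YAMC (SD, n = 10 each). Its mp53/Ras mean exceeded bleo/Neo by 1.22 ± 0.11 (adjusted p 3.42e-14) and, unlike the first set, also YAMC, by 0.58 ± 0.11 (adjusted p 7.23e-06). It passed the filter through all 10 mp53/Ras arrays and 2 YAMC arrays. The third set, 1436551_at, was under the filter level on every array.

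Fgfr2, whose epithelial splice form is the receptor of Fgf7 and Fgf10, was highest in mp53 and the parental cells and lowest in bleo/Neo. On probe set 1433489_s_at it ran from 6.65 to 7.11 in mp53/Ras (median 6.99), from 6.64 to 7.54 in Ras (median 6.97), from 7.27 to 7.86 in mp53 (median 7.56), from 6.42 to 6.94 in bleo/Neo (median 6.52) and from 7.28 to 7.79 in YAMC (median 7.52). All mp53 and YAMC arrays lay above all mp53/Ras and bleo/Neo arrays. Relative to bleo/Neo it rose by 0.97 ± 0.08 in mp53 (adjusted p 2.28e-14), by 0.43 in Ras and by 0.35 in mp53/Ras. Relative to YAMC it fell by 0.58 ± 0.08 in mp53/Ras (adjusted p 2.77e-08) and by 0.51 in Ras, with a difference of 0.03 in mp53.

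The other Fgfr2 probe sets were dim and disagreed with each other. Set 1420847_a_at was above the filter level on 2 arrays and averaged 5.70 in mp53/Ras, 5.74 in Ras and 6.12 in mp53, against 5.45 in bleo/Neo and 6.28 in YAMC. Set 1443211_at was above it on 0 arrays and averaged 5.23 in mp53/Ras, 4.77 in Ras and 5.31 in mp53, against 4.94 in bleo/Neo and 4.85 in YAMC. Which splice form each set reads was not analysed here. Summed epithelial markers ranged from 13487 to 16763 in mp53/Ras, from 11201 to 15986 in Ras, from 7610 to 14956 in mp53, from 9464 to 14199 in bleo/Neo and from 4940 to 10084 in YAMC. Their part in the Fgfr2 level was not tested.

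Fgfr3, which restrains bone growth, changed little. It ran from 7.21 to 8.10 in mp53/Ras (median 7.84), from 7.69 to 8.50 in Ras (median 7.93), from 7.37 to 8.42 in mp53 (median 8.17), from 7.82 to 8.60 in bleo/Neo (median 8.46) and from 7.75 to 8.58 in YAMC (median 8.12). The groups overlapped, and no step between neighbours in the order of means was called. The ends of that order did differ, since Fgfr3 fell by 0.55 ± 0.11 in mp53/Ras (adjusted p 4.32e-05) and by 0.40 in Ras relative to bleo/Neo, and by 0.33 in mp53/Ras relative to YAMC (adjusted p 0.0104). Its second set, 1425796_a_at, was under the filter level on every array.

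Fgfrl1, a receptor-like protein that binds FGFs but has no tyrosine kinase domain, was lower in every infected population than in the parental cells on its brighter probe set. On 1447878_s_at it ran from 9.49 to 9.98 in mp53/Ras (median 9.81), from 9.77 to 10.36 in Ras (median 10.06), from 10.08 to 10.41 in mp53 (median 10.24), from 10.20 to 10.64 in bleo/Neo (median 10.40) and from 10.29 to 10.89 in YAMC (median 10.62). The mp53/Ras arrays lay below all mp53, bleo/Neo and YAMC arrays. Fgfrl1 fell by 0.59 ± 0.08 in mp53/Ras (adjusted p 7.8e-09) and by 0.35 in Ras relative to bleo/Neo, and the mp53 difference of -0.14 was not called. Relative to YAMC it fell by 0.82 in mp53/Ras, by 0.58 in Ras and by 0.37 in mp53, and bleo/Neo differed from its parent by -0.23 (adjusted p 0.0158).

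The other Fgfrl1 probe set, 1451912_a_at, moved less and did not separate the infected populations that carried an oncogene. It averaged 8.56 ± 0.20 in mp53/Ras, 8.60 ± 0.18 in Ras and 8.62 ± 0.11 in mp53, against 8.87 ± 0.11 in bleo/Neo and 8.84 ± 0.24 in YAMC (SD, n = 10 each). It fell relative to bleo/Neo by 0.31 in mp53/Ras, by 0.27 in Ras and by 0.24 in mp53. Relative to YAMC it fell by 0.28 in mp53/Ras and by 0.24 in Ras, and the mp53 difference of -0.21 was just outside the threshold (adjusted p 0.0509).

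**Figure D2:**
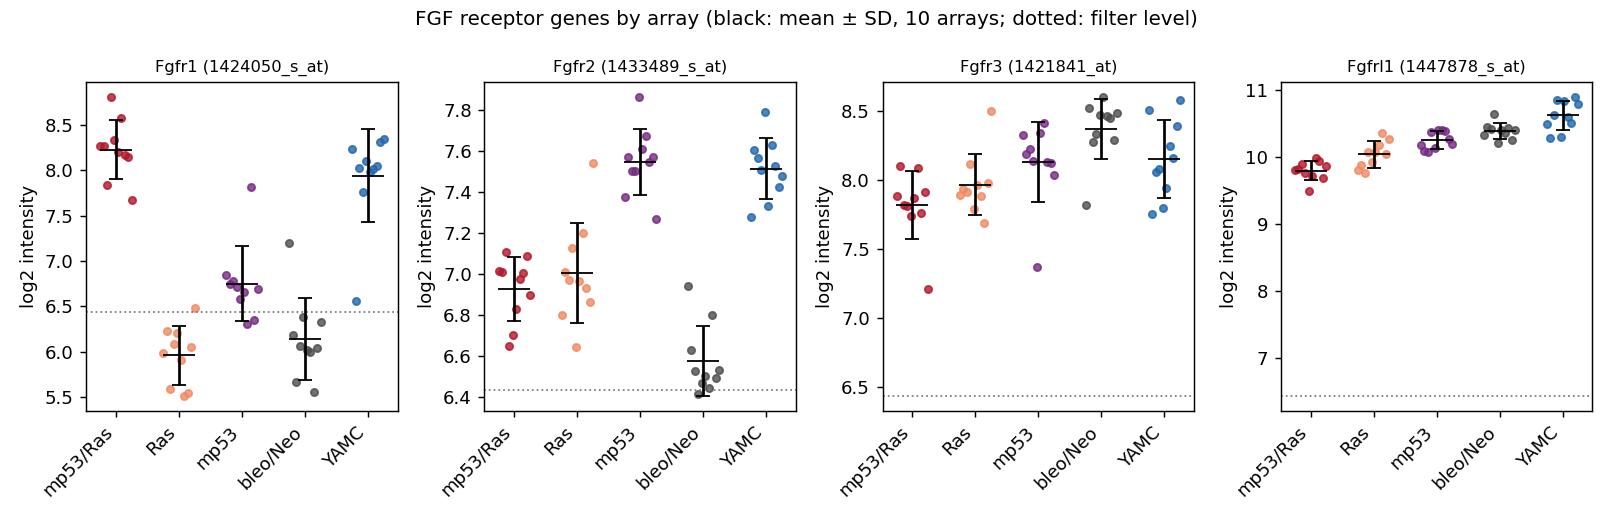
Log2 intensity of Fgfr1, Fgfr2, Fgfr3 and Fgfrl1 (y axis) on each of the 10 arrays of mp53/Ras, Ras, mp53, bleo/Neo and YAMC (x axis), with the mean and SD in black and the filter level of 6.44 as a dotted line. Fgfr1 is high in mp53/Ras and YAMC, Fgfr2 in mp53 and YAMC, and Fgfrl1 is lowest in mp53/Ras.

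Fgf7 and Fgfr1 formed 4 combinations over the 5 populations. In mp53/Ras both were high, in Ras Fgf7 alone was high, and in YAMC Fgfr1 alone was high. In mp53 and bleo/Neo both medians were lower, at 6.30 and 5.59 for Fgf7 and at 6.70 and 6.05 for Fgfr1. No cut was set for high or low. Both genes were called higher in mp53 than in bleo/Neo, by 0.99 for Fgf7 and by 0.61 for Fgfr1. The plot of Fgf7 against Fgfr1 also shows the arrays that left their groups, with Ras array 10 beside the mp53 arrays and mp53 array 10 beside the Ras arrays along the Fgf7 axis.

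**Figure D3:**
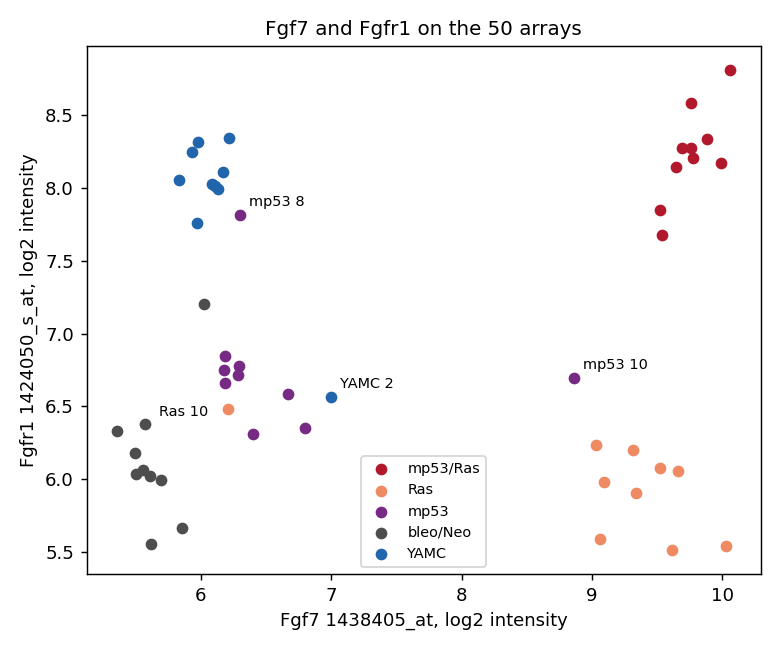
Log2 intensity of Fgf7 1438405_at (x axis) and Fgfr1 1424050_s_at (y axis) on the 50 arrays, coloured by group, with the 4 arrays that lay nearest to another group named. The mp53/Ras arrays fill the upper right, with Fgf7 at 9.52 or more and Fgfr1 at 7.68 or more.

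Of the 11 probe sets that passed the filter, 10 were called in mp53/Ras against bleo/Neo, beside 51.5% of all 24458 tested probe sets. Of the 10, 5 were higher, namely both sets of Fgf7 and of Fgfr1 and the Fgfr2 set (26.8% of all), and 5 were lower, namely Fgf13, Fgf18, Fgfr3 and both Fgfrl1 sets (24.7% of all). Only Fgf10 was not called. A 2-fold difference was reached by 6 (6.29% of all), and the arrays did not overlap for 6 (15.4% of all). Several sets passed the filter only through a group in which they were high. These counts and those of the comparisons below therefore describe the sets and are not a test of the family.

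In Ras against bleo/Neo 7 of the 11 were called (39.1% of all), 3 higher (19.8%) and 4 lower (19.3%). The 3 that reached 2-fold (3.67% of all) were both Fgf7 sets and Fgf18, and the arrays of the Fgf7 sets alone did not overlap (2 of 11, beside 6.18% of all). In mp53 against bleo/Neo 6 were called (32.7% of all), 4 higher (15.8%) and 2 lower (16.8%). Only Fgf13 reached 2-fold there (2.92% of all), and the arrays did not overlap for 4 (3.86% of all), namely both Fgf7 sets, Fgf13 and Fgfr2. Leaving out the 4 arrays that lay nearest to another group gave 10 called sets in mp53/Ras (13383 of all 24458). It gave 7 in Ras (10909 of all 24458) and 6 in mp53 (9112 of all 24458).

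Against the parental cells, 9 of the 11 sets were called in mp53/Ras (54.6% of all), 4 higher (29.2%) and 5 lower (25.4%). Of these 3 reached 2-fold (5.12% of all), both Fgf7 sets and Fgf18, and 4 did not overlap (14.3% of all). In Ras 9 were called (39.6% of all), 3 higher (20.8%) and 6 lower (18.8%), with 4 past 2-fold (2.63%), both Fgf7 sets, Fgf13 and Fgfr1, and 2 not overlapping (3.82%). In mp53 4 were called (21.6% of all), 1 higher (11.2%) and 3 lower (10.4%), with 1 past 2-fold (0.699%), Fgfr1, and 0 not overlapping (0.290%). Without the 4 arrays 9 were called in mp53/Ras (13727 of all 24458), 10 in Ras (10658 of all 24458) and 6 in mp53 (7619 of all 24458).

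The vector population differed from its parent in 6 of the 11 (34.0% of all), 2 higher (18.1%), Fgf13 and Fgf18, and 4 lower (15.9%), both Fgfr1 sets, Fgfr2 and Fgfrl1 1447878_s_at. Of these, 2 reached 2-fold (2.51%), Fgf13 and Fgfr1, and 2 did not overlap (4.01%), Fgf13 and Fgfr2. The bleo/Neo and YAMC baselines gave unlike differences for Fgf13, Fgfr1 and Fgfr2. All comparisons with one control share its 10 arrays.

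The median difference of the 11 sets in mp53/Ras against bleo/Neo was 0.15, beside 0.02 over all tested probe sets. In Ras it was -0.10 beside 0.00368, and in mp53 -0.12 beside -0.01. The family thus had no common direction, and its members moved by gene.

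**Figure D4:**
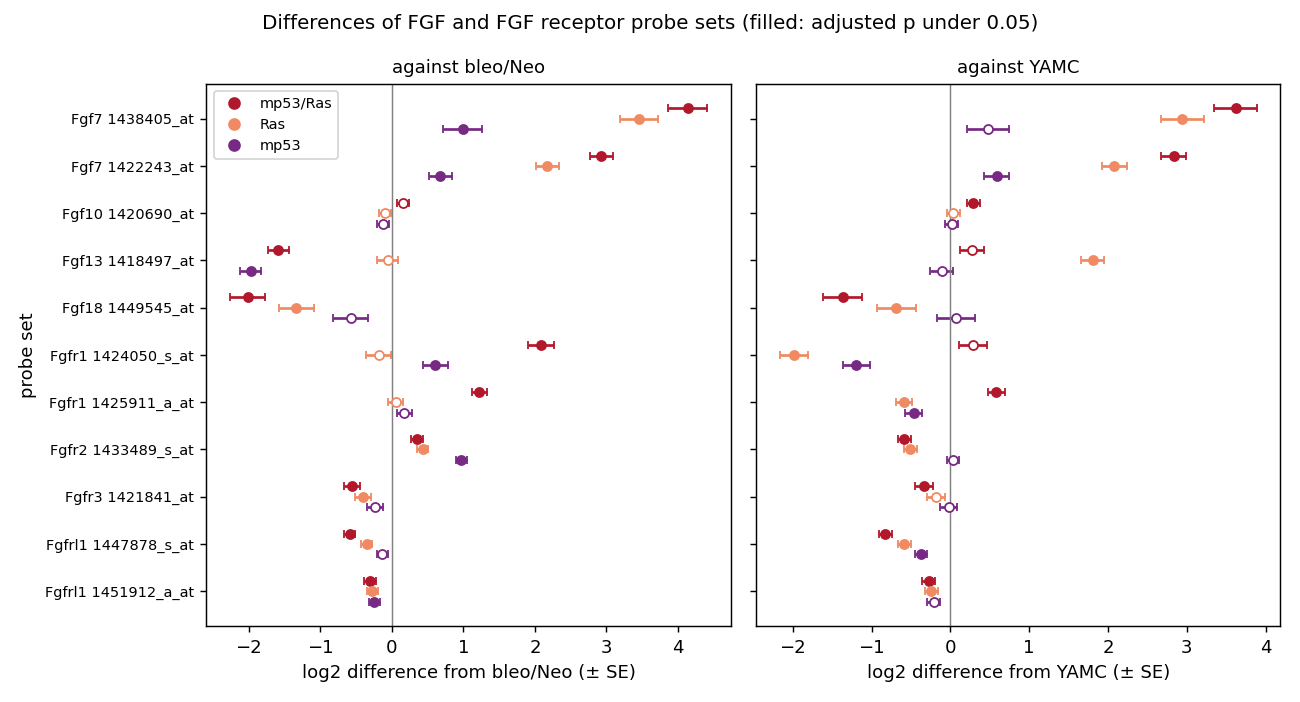
Log2 difference with its SE (x axis) of the 11 probe sets that passed the filter (y axis) in mp53/Ras, Ras and mp53, against bleo/Neo on the left and against YAMC on the right, filled where the adjusted p was under 0.05. Fgf7 is displaced to the right in mp53/Ras and Ras on both sides, and Fgfr1 is displaced to the right in mp53/Ras against bleo/Neo but to the left in Ras and mp53 against YAMC.

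Between mp53/Ras and mp53 10 of the 11 sets were called (44.0% of all), 6 higher (22.7%) and 4 lower (21.3%). Both Fgf7 sets, both Fgfr1 sets and Fgf18 were past 2-fold (5 of 11, beside 3.34% of all), and 5 did not overlap (9.71% of all). Between mp53/Ras and Ras 7 were called (19.8% of all). Of these, Fgf10, Fgf7 1422243_at and both Fgfr1 sets were higher in mp53/Ras (9.02% of all), and Fgf13, Fgf18 and Fgfrl1 1447878_s_at were lower (10.8% of all). Both Fgfr1 sets and Fgf13 were past 2-fold (3 of 11, beside 0.748% of all) and had arrays that did not overlap (3.72% of all). Fgfr1 1425911_a_at had 10 mp53/Ras and 0 Ras arrays above the filter level, and Fgf13 had 0 and 9. Their passing thus rested in part on a group of this comparison, so these counts are descriptions only. Ras and mp53, compared only to order the levels, differed in 7 of the 11 (30.1% of all).

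A non-additive term was fitted as mp53/Ras minus mp53 minus Ras plus bleo/Neo on the log2 scale, which is zero where the effects of both genes add. It was called for 4 of the 11 sets (22.1% of all). Fgfr1 had a term of 1.67 ± 0.25 on 1424050_s_at (adjusted p 1.01e-06), its level in mp53/Ras being above what the separate differences add to. Its dimmer set 1425911_a_at had a term of 1.00 ± 0.15 (adjusted p 9.57e-07), but that set passed the filter through its height in mp53/Ras, so its term is a description and adds no support. Fgfr2 had a term of -1.05 ± 0.11 (adjusted p 2.86e-10), since relative to bleo/Neo it rose in mp53 and in Ras but less than their sum in mp53/Ras. Fgf10 had a term of 0.37 ± 0.12 (adjusted p 0.0162). For Fgf7 the term was -0.31 ± 0.38 and 0.08 ± 0.23 on its 2 sets and was not called, and Fgf18, Fgf13, Fgfr3 and Fgfrl1 had no called term.

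The term depends on the baseline. With YAMC in place of bleo/Neo, 3 of the 11 sets were called (11.8% of all). The Fgfr1 terms were then 3.46 ± 0.25 on 1424050_s_at and 1.64 ± 0.15 on 1425911_a_at. The terms of Fgfr2 (-0.11 ± 0.11, adjusted p 0.59) and Fgf10 (0.24 ± 0.12, adjusted p 0.195) lost their calls. Fgf13 had a term of -1.42 ± 0.21 (adjusted p 3.66e-06), against 0.45 ± 0.21 with bleo/Neo.

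On the linear scale the pattern was described without a test. The summed mp53 and Ras means were 0.864 and 0.853 of the mp53/Ras mean for the Fgf7 sets, 0.573 for Fgfr1 1424050_s_at and 0.917 for Fgfr1 1425911_a_at. The mp53/Ras mean of Fgf18 was 0.358 of the mp53 mean and 0.628 of the Ras mean, and that of Fgfrl1 1447878_s_at was 0.730 and 0.842 of them. Without the 4 arrays that lay nearest to another group, the Fgf7 ratios were 0.892 and 0.887 and the Fgfr1 ratios 0.521 and 0.926.

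The 3 members with the widest range of group means were Fgf7 (4.13), Fgfr1 (2.27) and Fgf18 (2.01), and the genes with the most similar pattern were sought among 12298 others. The correlations run over the 50 arrays, which share the group structure and the normalisation, and are descriptions only. Fgf7 was most like Acsbg1 (r = 0.983), an acyl-CoA synthetase gene, Oaf (r = 0.980) and Ackr3 (r = 0.977), an atypical chemokine receptor. Fgfr1 was most like Mef2c (r = 0.849), a transcription factor gene, AA414768 (r = 0.837) and Sertad4 (r = 0.803), and Fgf18 was most like Natd1 (r = 0.907), Samd10 (r = 0.892) and the ephrin gene Efnb1 (r = 0.880).

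Of 75 other genes of FGF signalling, 59 had a probe set past the filter. In mp53/Ras against bleo/Neo 21 rose and 18 fell, in Ras 19 rose and 14 fell, and in mp53 11 rose and 9 fell, beside the shares of all probe sets given above. Without the 4 arrays that lay nearest to another group, the mp53 count became 13 higher and 15 lower, beside 9112 of all 24458 probe sets called. Ndst1, Frs2 and Etv1 were not analysed here.

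The feedback inhibitors and the FLRT genes, which are often expressed with FGFs, were all measured above the filter. Of these 11, 7 rose and 3 fell in mp53/Ras against bleo/Neo, 6 rose and 2 fell in Ras, and 2 rose and 2 fell in mp53. Their median difference was 0.38 in mp53/Ras, 0.33 in Ras and -0.16 in mp53, beside 0.02, 0.00368 and -0.01 over all probe sets. Spry2, an inhibitor of receptor signalling, was 1.00 ± 0.16 higher in mp53/Ras and 0.99 ± 0.16 higher in Ras, with a difference of -0.02 in mp53. Spry4 rose by 0.98 ± 0.10 in mp53/Ras and by 1.04 ± 0.10 in Ras, and Dusp6, the ERK phosphatase, by 1.05 ± 0.27 and 0.94 ± 0.27. Flrt3, a membrane protein that interacts with FGF receptors, fell by 2.59 ± 0.20 in mp53/Ras, by 2.29 ± 0.20 in Ras and by 1.17 ± 0.20 in mp53. Relative to YAMC the called differences were -1.71 in mp53/Ras and -1.41 in Ras, and the mp53 difference of -0.29 was not called (adjusted p 0.335). The other two that fell in mp53/Ras, named after their values were seen, were Flrt1 and Spry1. Without the 4 arrays the mp53 counts were 2 higher and 5 lower.

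Of 7 tested ERK-induced targets, 6 rose and 1 fell in mp53/Ras against bleo/Neo, 6 rose and 0 fell in Ras, and 1 rose and 2 fell in mp53, or 4 without the 4 arrays. Against YAMC 5 rose in mp53/Ras and 5 in Ras, Etv5 and Fos not being called in either. Fosl1, an AP-1 subunit, was 1.51 ± 0.24 higher in mp53/Ras and 1.65 ± 0.24 higher in Ras. Myc rose by 1.40 ± 0.17 in mp53/Ras and by 0.93 ± 0.17 in Ras, and Ccnd1, encoding cyclin D1, by 1.12 ± 0.10 and 1.15 ± 0.10. Etv4, an ETS factor, rose by 0.65 ± 0.17 in mp53/Ras and by 0.82 ± 0.17 in Ras but fell by 0.64 ± 0.17 in mp53. The 1 that fell in mp53/Ras, named after its value was seen, was Fos. RasV12 acts in this pathway itself, so FGF input and Ras input to these genes cannot be told apart.

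**Figure D5:**
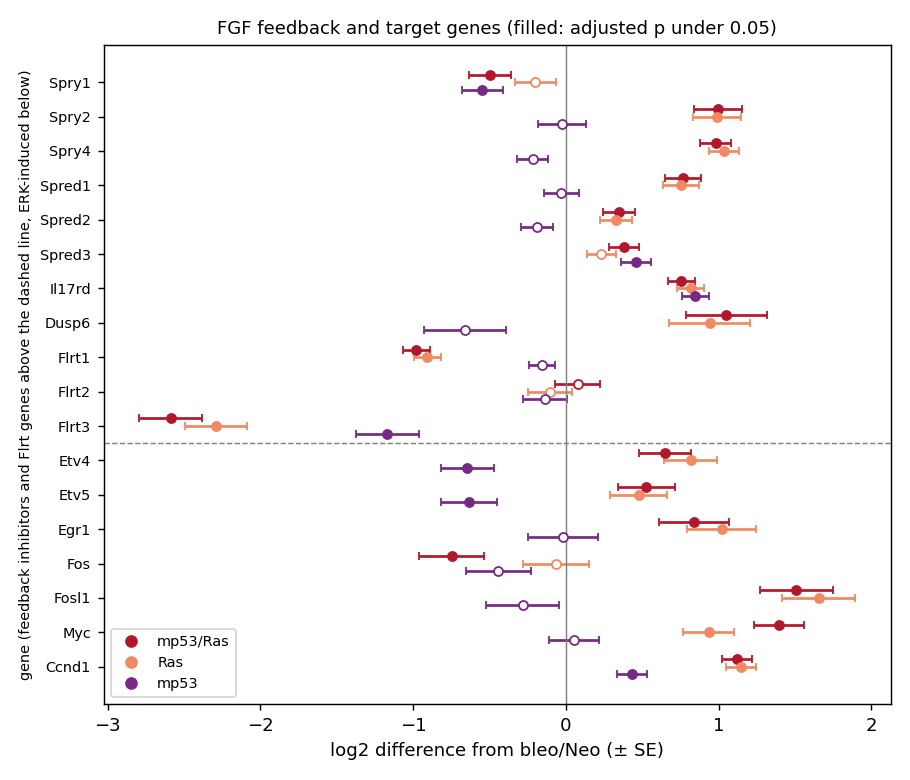
Log2 difference from bleo/Neo with its SE (x axis) of the feedback and FLRT genes and the ERK-induced genes (y axis) in mp53/Ras, Ras and mp53, filled where the adjusted p was under 0.05. mp53/Ras and Ras points lie together to the right for Fosl1, Ccnd1, Spry2 and Spry4, and to the left for Flrt3.

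Among 10 tested carriers of FGFs, 2 rose and 5 fell in mp53/Ras against bleo/Neo, 2 rose and 4 fell in Ras, and 2 rose and 1 fell in mp53. For this and the other lists, 51.5%, 39.1% and 32.7% of all probe sets were called in mp53/Ras, Ras and mp53 against bleo/Neo. Fgfbp3, a secreted FGF-binding protein, fell by 2.10 ± 0.21 in mp53/Ras, by 0.70 ± 0.21 in Ras and by 2.08 ± 0.21 in mp53. Against YAMC, however, it fell by 0.76 in mp53/Ras and by 0.74 in mp53 and rose by 0.64 in Ras. The heparan sulfate proteoglycan Sdc2 fell by 1.26 ± 0.12 in mp53/Ras and by 1.22 ± 0.12 in Ras, and Gpc3 by 1.00 ± 0.08 and 1.18 ± 0.08. Gpc4 fell by 0.76 in mp53/Ras relative to bleo/Neo and by 1.49 relative to YAMC. The 2 that rose in mp53/Ras, named after their values were seen, were Gpc1 (1.17 ± 0.10) and Gpc6 (0.26 ± 0.11). Relative to YAMC Gpc1 rose by 0.68 in mp53/Ras, and the Gpc6 difference of -0.17 was not called (adjusted p 0.179).

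Of 9 tested genes of heparan sulfate synthesis and editing, 3 rose and 4 fell in mp53/Ras, 2 rose and 4 fell in Ras, and 3 rose and 2 fell in mp53. Hs3st1, a sulfotransferase, was 1.42 ± 0.24 higher in Ras and 0.79 ± 0.24 higher in mp53/Ras than in bleo/Neo. Relative to YAMC Hs3st1 rose by 0.94 in Ras and fell by 1.07 in mp53 (adjusted p 0.00107). Its mp53/Ras difference from YAMC, 0.32, was not called (adjusted p 0.269). Of 9 receptor adaptors, 1 rose and 2 fell in mp53/Ras, 1 rose and 1 fell in Ras, and 2 rose and 0 fell in mp53. Gab1, a docking protein, fell by 1.34 ± 0.12 in mp53/Ras and by 0.93 ± 0.12 in Ras, and Shc1 rose by 1.07 ± 0.12, 0.82 ± 0.12 and 0.71 ± 0.12 in mp53/Ras, Ras and mp53. Relative to YAMC Shc1 rose by 0.54 in mp53/Ras, and the differences of 0.28 in Ras (adjusted p 0.0512) and 0.17 in mp53 (adjusted p 0.315) were not called.

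Esrp2, an epithelial regulator that promotes the epithelial splice form of Fgfr2, fell by 1.31 ± 0.11 in mp53/Ras, by 0.47 ± 0.11 in Ras and by 0.69 ± 0.11 in mp53 relative to bleo/Neo. Relative to YAMC it fell by 0.93 in mp53/Ras and by 0.32 in mp53, and the Ras difference of -0.09 was not called (adjusted p 0.561). Its relative Esrp1 did not pass the filter. Of the 5 splicing regulators tested, 1 rose and 1 fell in mp53/Ras. Of 7 other FGF ligands tested out of 13, 1 rose and 1 fell in mp53/Ras, 1 rose and 2 fell in Ras, and 0 rose and 1 fell in mp53, and none of these reached 1 log2 unit. Fgfr4, the remaining receptor kinase, differed by -0.17 in mp53/Ras (adjusted p 0.0398), by 0.25 in Ras (adjusted p 0.00355) and by -0.05 in mp53, and the Klotho co-receptors Kl and Klb did not pass the filter.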

How the data were processed

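Polysomal RNA of 50 samples, 10 per group, was hybridised to Affymetrix mouse genome arrays, per the labels' protocols. The deposited values are linear intensities, 1 for each probe set on each array. Per the submitters' processing notes the authors used RMA (version not given in the sources used here), and array medians from 86.4 to 86.7 show that values were already normalised between arrays. Of 45101 rows, 64 were blank. No depth, detection call or batch was given, and precision is limited by how many arrays there are.

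The intensities were put on the log2 scale as they stood. Symbols came from the platform annotation, where 34945 probe sets had 1 symbol, 932 had several and 9160 had none. Probe sets above the table median (6.44) on at least 10 arrays, 24458 in all, entered a model with a mean for every group and an intensity trend (limma 3.58.1 under R 4.3.3), checked on simulated data. P-values were adjusted by Benjamini-Hochberg over all tested probe sets in each of 10 comparisons and called under 0.05. Ras against mp53 was added to order levels. A gene outside the 10 members is represented by its brightest single-symbol probe set. Such genes are named when called with at least 1 log2 unit in a comparison of mp53/Ras, Ras or mp53 with bleo/Neo or YAMC, the largest first and at most 4 a list. Members, lists and the alternatives that leave out arrays were chosen with earlier results of these data known, and leaving out all 4 arrays together and putting YAMC in the place of bleo/Neo in the non-additive term were added after seeing the values. Probe sets whose names end in _s_at can match transcripts of several genes.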

Additional observations from a re-analysis of the deposited data

Results flagged for a closer look

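Among the 55 sets of 10 arrays (11 probe sets in 5 groups), 15 held an array that stood apart by Dixon's ratio, where chance gives about 1 in 20. For Fgf7 1438405_at these were Ras array 10 (6.21), mp53 array 10 (8.87) and YAMC array 2 (7.0), and for Fgf7 1422243_at Ras array 10 (6.2) and mp53 array 10 (7.40). For Fgf13 it was mp53 array 10 (5.77), and for Fgf18 Ras array 9 (7.35). For Fgfr1 1424050_s_at these were mp53 array 8 (7.81), bleo/Neo array 1 (7.20) and YAMC array 2 (6.56), and for Fgfr1 1425911_a_at YAMC array 2 (5.28). For Fgfr3 they were mp53/Ras array 10 (7.21), Ras array 10 (8.50), mp53 array 5 (7.37) and bleo/Neo array 1 (7.82). Of the 15, 10 fell on the 4 arrays that lay nearest to another group.

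The non-additive term was called for 4 probe sets. It was 0.37 for Fgf10, 1.67 for Fgfr1 1424050_s_at, 1.00 for Fgfr1 1425911_a_at and -1.05 for Fgfr2. Fgfr1 1425911_a_at passed the filter through its height in mp53/Ras, so its term is a description and adds no support. With YAMC in place of bleo/Neo the terms of Fgf10 (0.24, adjusted p 0.195) and Fgfr2 (-0.11, adjusted p 0.59) were not called.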

How the results depend on the processing

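Across 8 alternatives and 10 comparisons, 858 of 880 values of the 11 probe sets kept their direction and their side of the threshold. Testing every probe set with values took in all 20 probe sets of the 10 genes in place of 11. Of the 20, 10 were called in mp53 against bleo/Neo (6 of 11 with the filter), beside 15137 of all 45037. In mp53 against YAMC 8 were called (4 of 11 with the filter), beside 11832 of all 45037. For the non-additive term 7 were called (4 of 11 with the filter), beside 12326 of all 45037. The added calls were of sets under the filter, except Fgfrl1 1451912_a_at in mp53 against YAMC, whose adjusted p became 0.0444.

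The sign turned 5 times, each time for an uncalled value near 0. Without mp53 array 10 and Ras array 10, Fgf13 in Ras against bleo/Neo was 0.0609, Fgf10 in mp53 against YAMC was -0.0155 and the non-additive term of Fgf7 1422243_at was -0.0266. Without mp53 array 8 and YAMC array 2, Fgf18 in mp53 against YAMC was -0.0152 and Fgfrl1 1451912_a_at in bleo/Neo against YAMC was -0.00478. Removing these arrays also made Fgf7 1438405_at called in bleo/Neo against YAMC (adjusted p 0.000251 without mp53 array 10 and Ras array 10) and left Fgf18 uncalled there (adjusted p 0.0838 without mp53 array 8 and YAMC array 2). Fitting only the groups compared added calls for Fgf7 1438405_at in bleo/Neo against YAMC (adjusted p 0.00145) and Fgf13 in mp53/Ras against YAMC (adjusted p 0.0217). It also added that of Fgfr1 1425911_a_at in mp53 against bleo/Neo (adjusted p 0.0256). The calls of Fgf18 in bleo/Neo against YAMC (adjusted p 0.108) and Fgfrl1 1451912_a_at in Ras against YAMC (adjusted p 0.0558) were lost. An offset of 16 before log2 removed those of Fgf13 in mp53/Ras against mp53 (adjusted p 0.0773) and Fgf18 in mp53/Ras against Ras (adjusted p 0.0504). For Fgf7 1438405_at in bleo/Neo against YAMC the difference was -0.51 in each of these fits. Its SE was 0.27 in the main fit, 0.11 without mp53 array 10 and Ras array 10 and 0.11 with only the groups compared. Those arrays belong to neither group and enter only the spread shared by all groups. The cause of the other changes was not tested.

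With YAMC in place of bleo/Neo in the non-additive term, an alternative added after seeing the data, 3 sets were called (4 with bleo/Neo). The sign turned for Fgf13 (-1.42, adjusted p 3.66e-06) and, uncalled, for Fgf7 1438405_at (0.20), Fgfr3 (-0.12) and Fgfrl1 1447878_s_at (0.13).

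With the replicate number as a block, Fgf18 in mp53 against bleo/Neo (-0.58, adjusted p 0.0141) and Fgfrl1 1451912_a_at in mp53 against YAMC (-0.21, adjusted p 0.0291) became called, and no other call of the 11 sets changed. The numbers were not taken as pairing, since the labels do not say what they share and not every same-numbered pair of arrays correlated above 0.1 in its deviations from the group means (68 of 100 did, median 0.20, range -0.36 to 0.75). Even so, the data point to something shared by equal numbers, since 29 of 50 arrays matched their own number best among the other groups. The p-values of the main fit do not take this into account.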
